A study of Apostichopus japonicus with 12 samples.

Results

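Gut tissue of Apostichopus japonicus, a sea cucumber and thus an echinoderm, was compared after 48 h and after 6 h at 26 °C, so that the groups share a temperature and differ in how long it was held. Each group is 3 animals, chosen by the temperature and time in the sample labels, and all 30221 gene models of the deposited table were considered. These 6 libraries come from a series of 12, which also holds 3 control animals kept at 18 °C and 3 animals held at 30 °C for 6 h. The animals were warmed gradually from 18 °C, and the hours count from the arrival at 26 °C. RNA was extracted from single individuals, so the 3 libraries of a group are separate animals and no animal was sampled at both times. The labels give no age or sex, and no sampling time for the controls. Levels are the deposited FPKM (fragments per kilobase of gene, on a scale particular to each library that did not follow depth alone). Changes are differences of log2(FPKM + 1), 48 h minus 6 h, which understate the change of genes with low values.

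Warming beyond the range an animal is adapted to unfolds proteins, and cells answer by making heat shock proteins, chaperones that hold unfolded chains (the small heat shock proteins), refold them (HSP70 with its J-protein and BAG partners) or mature particular clients (HSP90 with its co-chaperones). The response is typically transient and is fed back by the chaperones themselves, which bind the heat shock transcription factor. In sea cucumbers the intestine is also an organ that shrinks and regresses during aestivation, the summer dormancy these animals enter in warm water. In bulk tissue, fewer cells of a type and less RNA per cell cannot be told apart.

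The 6 h libraries held 2095221, 2299986 and 3627690 reads on genes and the 48 h libraries 1788303, 2926724 and 2629072. After every library had been thinned to 1700000 reads, 12688, 14687 and 16643 genes were detected at 6 h and 15918, 18416 and 19039 at 48 h. The groups overlapped on this measure, and the difference of 3118 genes had an exact two-sided permutation p of 0.2, where 0.1 is the smallest that 3 animals against 3 allow. The 10 most read genes of a library took 40.9%, 34.4% and 41.2% of the reads at 6 h and 19.1%, 33.3% and 23.9% at 48 h, without overlap (exact permutation p = 0.1). In a principal component analysis of the 6 libraries, animal 1 at 6 h, the library with the fewest genes detected, stood apart from the other 5 on the first component (27.4% of the variance), and the second (24.0%) had the 6 h animals on one side and the 48 h animals on the other. The correlation between libraries over genes ran from 0.69 to 0.74 among 6 h animals, from 0.75 to 0.84 among 48 h animals and from 0.70 to 0.77 between the groups. The part of these whole-library differences in the results on single genes was not tested.

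**Figure D1:**
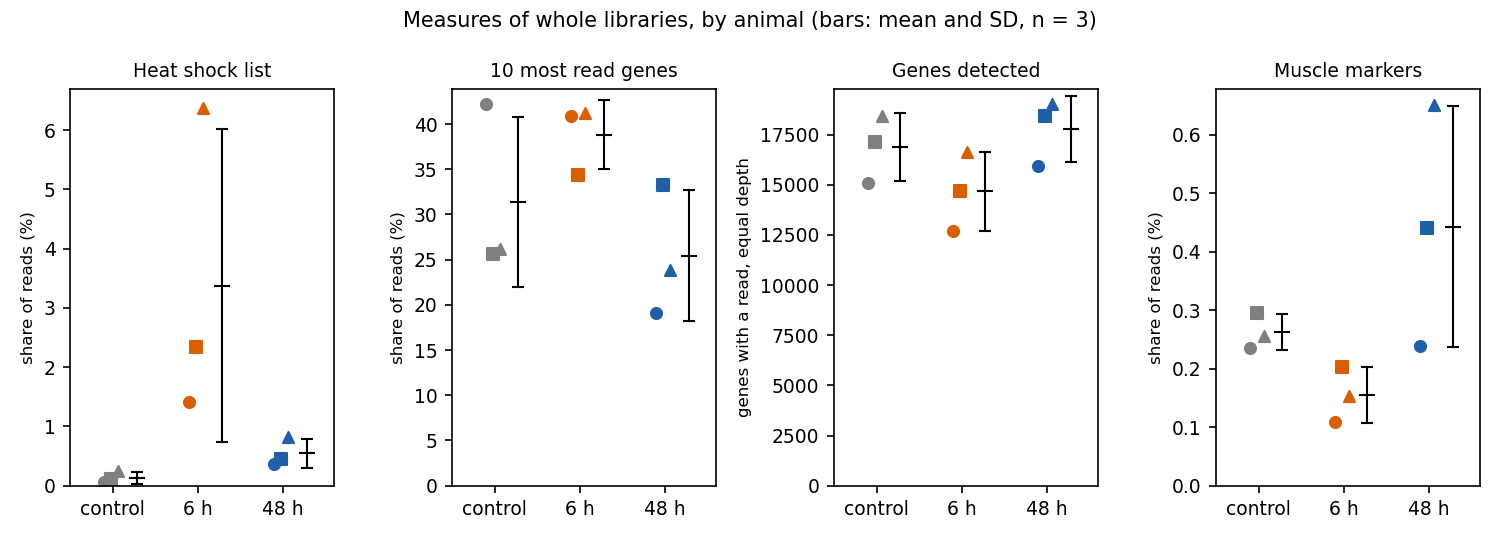
Measures of whole libraries, with 1 point per animal (circle, square and triangle for animals 1, 2 and 3) and the mean with SD beside it (n = 3), for controls, 6 h at 26 °C and 48 h at 26 °C. From left to right the vertical axes give the share of reads on the heat shock list (%), the share on the 10 most read genes (%), the genes with at least 1 read after thinning to 1700000 reads, and the share on muscle markers (%). The 6 h and 48 h animals overlap in the number of genes detected and in none of the other panels.

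The plainest difference between the times lay in the chaperones of the cytosol, which stood high at 6 h and had lower values in almost every model at 48 h, while single genes rarely separated the groups beyond the spread between animals. Of the 18729 genes tested with limma, 2 fell (0.0107%) and 0 rose (0.0%) at a Benjamini-Hochberg adjusted p under 0.05, and voom, limma's method for counts, on reads recovered from the FPKM also called 0 higher. At an unadjusted p under 0.05 there were 766 genes higher (4.09%) and 547 lower (2.92%) at 48 h, 1313 in all (7.01%) where 936.45 would be due by chance. The groups did not overlap for 1474 genes higher (7.87%) and 891 lower (4.76%) at 48 h, and 56.0% of genes had a change above 0, with a median of 0.12. The smallest adjusted p among genes higher at 48 h was 0.0733.

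The gene that fell most firmly was a model described as an IMD-like protein (BSL78_12555, scaffold MRZV01000415.1, bases 60055 to 71869, plus strand). IMD is an adaptor that carries signals from peptidoglycan receptors to NF-kB in Drosophila. It held 72.8, 199 and 58.1 FPKM in the 6 h animals, 502 reads in all, and 0, 0 and 0 in the 48 h animals. Every 6 h animal had it and no 48 h animal had a single read, and it was also at 0 in all 3 controls and in all 3 animals at 30 °C. Its mean was at least 70.2-fold lower at 48 h, taking 3 reads in each 48 h library as the floor (log2 change -6.58, SE 0.53, limma adjusted p = 0.000161). The call was lost in 1 of 23 alternative analyses, a fit to the 6 libraries alone (limma adjusted p = 0.222). The 22 that kept it all included control and 30 °C libraries, where every value was 0. Those groups add no spread to the shared estimate, so the 22 are not independent support for the call. The table describes 5 models by this name, so reads could be shared between similar copies, but none of the others had its pattern. The model with the next highest values, BSL78_02287, held 0.979, 8.53 and 14.3 FPKM at 6 h and 1.93, 0.902 and 6.10 at 48 h, and the values of the remaining ones were at most 8.48 FPKM in these 6 libraries.

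The other gene that fell was a hypothetical protein (BSL78_09881, scaffold MRZV01000295.1, bases 616342 to 618630, minus strand). It held 2572, 1606 and 1981 FPKM at 6 h, 94.4, 181 and 170.3 at 48 h and 107, 189.5 and 128 in controls. All 3 animals at 6 h were far above every 48 h and control animal, and the 48 h values lay within or just below the control range. The mean at 6 h was 13.8 times that at 48 h (log2 change -3.81, SE 0.52, limma adjusted p = 0.0419). This call sat near the threshold and was lost in 16 of 23 alternatives, 11 of them the omission of a single library, with adjusted p between 0.0623 and 0.253.

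Across a gap of 2610 bases, on the opposite strand, lies the gene of the mitochondrial chaperonin Hsp56 (BSL78_09882, bases 621241 to 627617), which folds proteins inside mitochondria. It held 1059, 925 and 1328 FPKM at 6 h, 140.1, 170.3 and 165 at 48 h and 47.4, 123 and 102 in controls. The 6 h animals were again all higher and alike, with a 6 h mean 6.96 times the 48 h mean, although the gene did not pass the test (log2 change -2.78, SE 0.61, limma adjusted p = 0.372). The flanking genes on either side did not share the pattern. A putative citrate synthase (BSL78_09880) had a log2 change of 0.36 and a second hypothetical protein (BSL78_09883) one of 0.38.

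**Figure D2:**
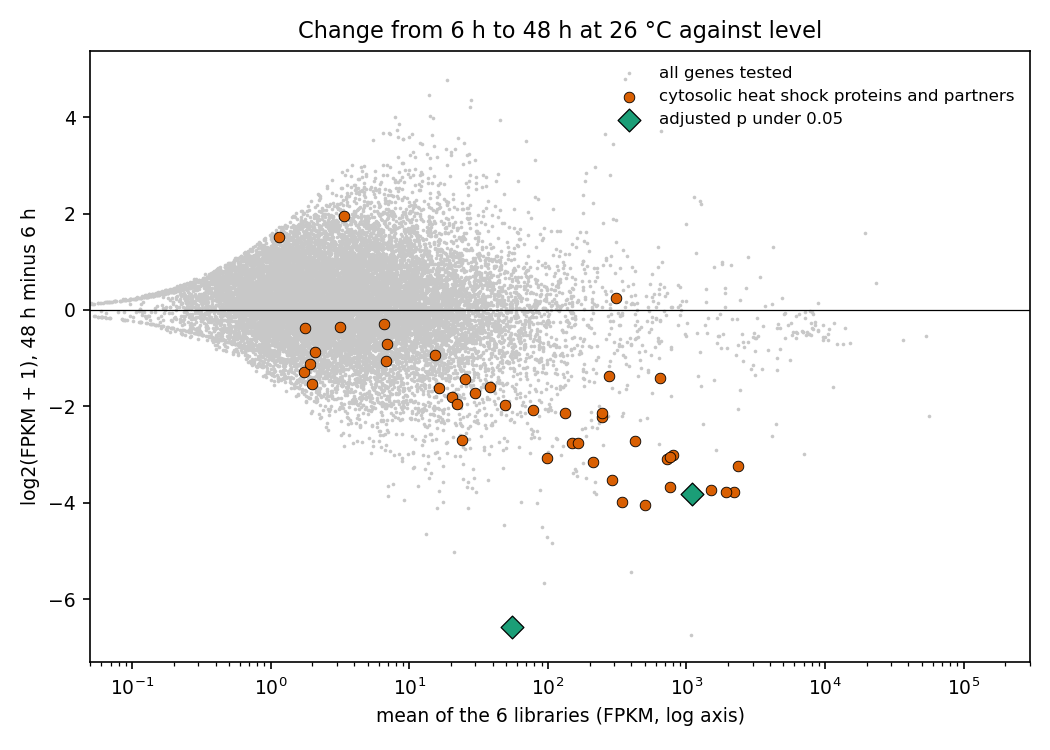
Change from 6 h to 48 h (vertical axis, log2(FPKM + 1), 48 h minus 6 h) against the mean of the 6 libraries (horizontal axis, FPKM, log scale) for the 18729 genes tested, in grey. Orange points are the 43 tested models of the heat shock list, 40 of them below 0, and green diamonds are the 2 genes with an adjusted p under 0.05, the IMD-like protein at -6.58 and the hypothetical protein at -3.81.

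The list of cytosolic heat shock proteins and their partners held 47 models. Of these 43 passed the filter on low values, none passed the test after adjustment, and 40 were lower at 48 h. The filter takes the mean of all 12 libraries, so a model such as BSL78_14633 could pass it through its 6 h values alone. The median change of the 43 was -1.98, against 0.12 over all genes tested. At an unadjusted p under 0.05, 24 were lower and 0 higher, a share of 55.8% where 2.92% of all genes were lower, and the groups did not overlap for 19 lower models (44.2%, against 4.76%) and 1 higher. Together the 47 models took 1.41%, 2.34% and 6.38% of the reads on genes at 6 h, and the widest 95% Wilson interval, that of animal 3, ran from 6.35% to 6.40%. They took 0.359%, 0.452% and 0.823% at 48 h and 0.0551%, 0.104% and 0.249% in controls. Every 6 h animal was above every 48 h animal, and every 48 h animal above every control. The means were 3.38% ± 2.64 and 0.545% ± 0.245 (SD, n = 3), a difference of -2.83 percentage points (exact permutation p = 0.1, the smallest possible). Without animal 3 at 6 h the difference was -1.33. The median change of the list, relative to all genes, was -2.10 with all libraries, -2.63 without animal 1 and -1.56 without animal 3 at 6 h.

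**Figure D3:**
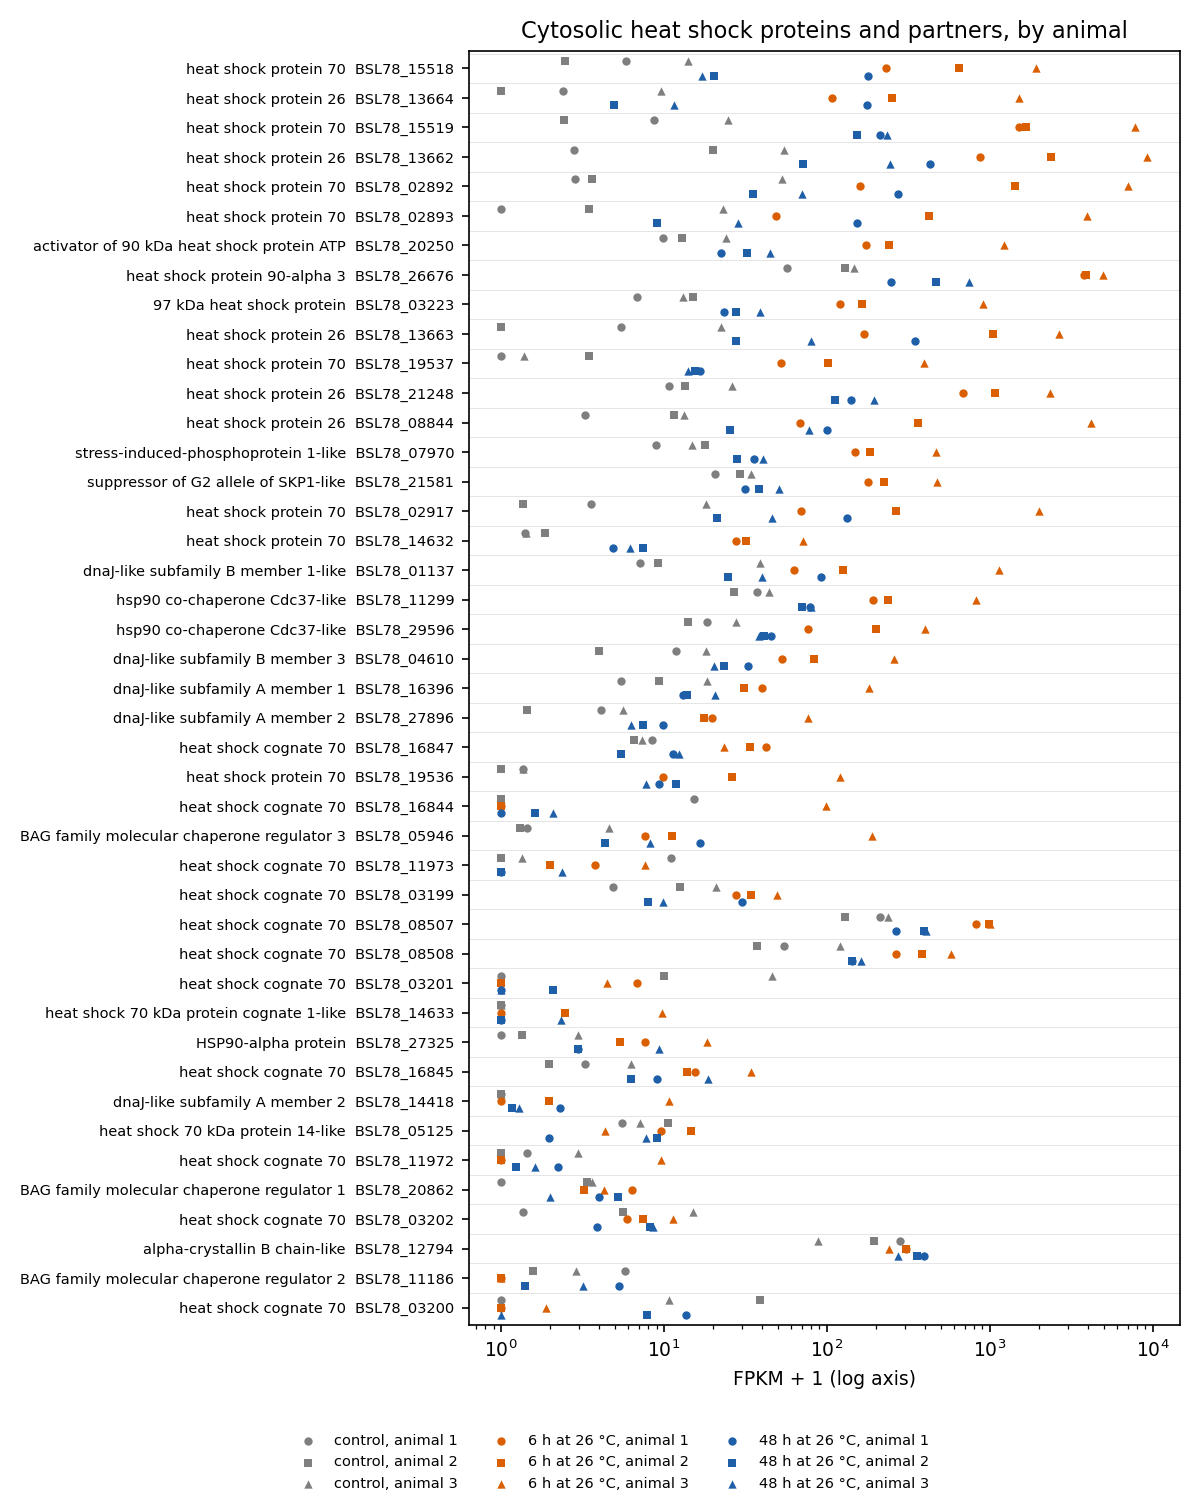
FPKM + 1 (horizontal axis, log scale) of the 43 tested models of the heat shock list, 1 row per model, ordered by change with the lowest at the top, with controls in grey, 6 h in orange and 48 h in blue. Circle, square and triangle mark animals 1, 2 and 3 of each group. In the upper rows the orange triangle, animal 3 at 6 h, lies farthest to the right, and blue overlaps orange in some rows, where the blue circle, animal 1 at 48 h, is to the right of the orange circle, animal 1 at 6 h.

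The small heat shock proteins, which bind unfolding proteins without using ATP, were represented by 5 models named heat shock protein 26, and all 5 had lower values at 48 h (log2 changes from -3.99 to -3.02). The most abundant (BSL78_13662, scaffold MRZV01000464.1, bases 241895 to 242536, minus strand) held 868, 2382 and 9268 FPKM at 6 h, 425, 70.6 and 243 at 48 h and 1.82, 18.9 and 53.8 in controls. The most even (BSL78_21248) held 681, 1069 and 2338 FPKM at 6 h and 139, 111 and 193 at 48 h. In both models the groups did not overlap, with adjusted p of 0.49 and 0.372 by limma. In the other 3 (BSL78_13663, BSL78_13664 and BSL78_08844) animal 1 at 48 h was above animal 1 at 6 h. BSL78_13663, for example, held 169, 1047 and 2663 FPKM at 6 h and 347, 26.7 and 78.96 at 48 h. Head to head with BSL78_21248, across 547 bases, stands a putative DPH3 gene (BSL78_21247), whose product takes part in making diphthamide on elongation factor 2. Its values were 135, 131 and 300.3 FPKM at 6 h and 16.9, 30.9 and 25.4 at 48 h, without overlap (log2 change -2.83, limma adjusted p = 0.387). The opposite pair BSL78_13662 and BSL78_13663 lies 1208 bases apart. Alpha-crystallin B (BSL78_12794), another small heat shock protein, departed from them, with 305, 304 and 241 FPKM at 6 h, 391, 357 and 272 at 48 h and 278, 194 and 86.8 in controls, and overlapped between the times.

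All 8 models named heat shock protein 70, the ATP-driven chaperone, were lower at 48 h. Of them 7 were lower at an unadjusted p under 0.05 (2.92% of all genes) and 4 without overlap (4.76% of all genes). The most abundant at both times was BSL78_15519 (scaffold MRZV01000570.1, bases 221474 to 225378, plus strand), with 1518, 1673 and 7735 FPKM at 6 h, 212, 152 and 233 at 48 h and 7.64, 1.43 and 23.6 in controls. The 48 h animals were close to each other, below all 6 h animals and above all controls (log2 change -3.78, SE 0.83, limma adjusted p = 0.372). Its neighbour BSL78_15518 held 229.7, 647 and 1916 FPKM at 6 h and 177, 19.4 and 16.2 at 48 h. Animal 1 at 48 h was far above the other two there. That animal also stood high for BSL78_02892, with 159, 1425 and 7018 FPKM at 6 h and 270.5, 34.2 and 69.7 at 48 h, where it exceeded animal 1 at 6 h. Among the 24 lower models, 7 had overlapping groups, and in all 7 animal 1 at 48 h exceeded animal 1 at 6 h. In 6 of those the other 48 h animals were below every 6 h animal. In 23 of the 24 animal 3 was the highest at 6 h, and in 22 animal 1 was the lowest. Models that share these names may share reads, and how reads were divided among copies is not given in the sources used here. Among the 8, BSL78_02892 and BSL78_02893 lie on the same strand at bases 270577 to 270996 and 271116 to 271676. BSL78_19536 and BSL78_19537 do so at bases 425172 to 429394 and 429545 to 430219. Whether such pairs are parts of 1 gene was not tested.

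The heat shock cognate 70 models, which fold proteins in unstressed cells too, had smaller changes, with a median of -1.38 over 11 tested models of 14. Of these 10 were lower, 2 at an unadjusted p under 0.05 (2.92% of all genes) and 3 without overlap (4.76% of all genes). The 1 above 0, BSL78_03200, held 0, 0 and 0.886 FPKM at 6 h and 12.7, 6.82 and 0 at 48 h. The abundant BSL78_08507 held 822, 985 and 1002 FPKM at 6 h, 266, 394 and 404 at 48 h and 210.0, 128 and 236 in controls. Its neighbour in number, BSL78_08508, held 263, 379.7 and 576 at 6 h and 142, 142 and 161 at 48 h. Both were without overlap and spread less between the 6 h animals than the models named heat shock protein 70. They lie on the same strand, at bases 79886 to 82676 and 82759 to 89917, and whether they are parts of 1 gene was not tested.

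HSP90, which matures kinases and receptors, was the model of this list with the highest mean at 48 h (BSL78_26676, scaffold MRZV01001666.1, bases 97856 to 107219, minus strand). It held 3763, 3876 and 4970.1 FPKM at 6 h, 248, 467 and 742 at 48 h and 55.997, 127 and 146 in controls, and the 3 groups did not overlap (log2 change -3.24, SE 0.89, limma adjusted p = 0.486). Its co-chaperones also had their highest values at 6 h. The activator of the HSP90 ATPase (BSL78_20250) held 172, 238 and 1228 FPKM at 6 h and 21.5, 31.3 and 43.8 at 48 h. Stress-induced-phosphoprotein 1 (BSL78_07970), which passes clients from HSP70 to HSP90, held 147, 184 and 468 FPKM at 6 h and 34.7, 27.3 and 39.7 at 48 h. The suppressor of G2 allele of SKP1 (BSL78_21581), another partner of HSP90, held 179, 224 and 471 FPKM at 6 h and 30.2, 37.4 and 50.1 at 48 h. None of them overlapped between the times, and none passed the test (limma adjusted p = 0.372, 0.511 and 0.382). The 97 kDa heat shock protein (BSL78_03223) likewise held 119, 164 and 909.9 FPKM at 6 h and 22.2, 26.7 and 37.99 at 48 h. Of the J proteins, which hand substrates to HSP70, 5 of 5 tested models were lower at 48 h and 3 did not overlap (4.76% of all genes were lower without overlap). The BAG regulators were split, with 2 lower and 1 higher of 3.

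Against unheated animals, the median of the list was above 0 at both times, without a call for any model at 48 h. The median difference of the 43 models from control was 3.25 at 6 h and 1.27 at 48 h, in comparisons that share the control animals and, with the change above, the heated ones. All 3 animals at 48 h exceeded all 3 controls in 21 of 43 models (5.84% of all genes did), and in 31 at 6 h (4.81% of all genes). No model had all 48 h animals below all controls. After adjustment limma called 9 genes higher (0.0481% of those tested) and 3 lower (0.016%) at 6 h than in controls. At 48 h against controls it called 0 genes in either direction (0.0%). At an unadjusted p under 0.05 there were 852, below the 936.45 due by chance. The smallest limma adjusted p in the heat shock list was 0.474, so no single model was shown to be higher at 48 h than in controls.

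Outside this list, the cytosolic chaperonin CCT also had lower values at 48 h. This ring folds actin and tubulin, and had 12 of 13 tested subunit models lower at 48 h, 9 without overlap (4.76% of all genes were lower without overlap) and 7 at an unadjusted p under 0.05 (2.92% of all genes), with a median of -1.73. The delta subunit (BSL78_14696) held 180.1, 256 and 643 FPKM at 6 h, 49.4, 51.4 and 71.1 at 48 h and 31.4, 68.5 and 64.2 in controls, so the 48 h values overlapped those of the controls (log2 change -2.43, limma adjusted p = 0.486). A beta subunit (BSL78_27385) held 83.4, 147 and 151 FPKM at 6 h and 3.06, 28.1 and 32.5 at 48 h, and theta (BSL78_27902) 113, 114 and 196 and 22.8, 48.2 and 40.6. Prefoldin, which delivers actin and tubulin to this ring, had 5 of 6 subunit models above 0, overlapping in every case. None of the 19 models passed the test after adjustment.

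In the endoplasmic reticulum the change was smaller, with a median of -0.24 over 27 tested models of 31, 8 of them above 0 and 0 called. Its main HSP70, the 78 kDa glucose-regulated protein (BSL78_16330), held 763, 919.6 and 525 FPKM at 6 h, 465, 186 and 288 at 48 h and 29.6, 64.5 and 98.1 in controls, so all heated animals were above all controls at both times. Among the 15 members with a mean of at least 5 FPKM, 1 was above 0. Of the mitochondrial chaperones and proteases 26 of 40 were above 0, with a median of 0.28. Their share of reads was nevertheless lower at 48 h, with 0.216, 0.236 and 0.317% at 6 h and 0.0792, 0.138 and 0.178% at 48 h. Their mean summed level was 1573 FPKM at 6 h and 645 FPKM at 48 h, of which Hsp56 held 1104 and 159. At an unadjusted p under 0.05 there were 1 higher and 2 lower (2.5% and 5.0%), near the 4.09% and 2.92% of all genes. The lower ones were Hsp56 and AFG3-like protein 2 (BSL78_19455), a subunit of an inner membrane protease, which held 8.84, 7.41 and 0.978 FPKM at 6 h and 2.01, 0 and 0 at 48 h and overlapped (log2 change -1.92, limma adjusted p = 0.656). The higher one was the inner membrane scaffold prohibitin-2 (BSL78_21455), which held 0, 1.4 and 4.3 FPKM at 6 h and 6.94, 8.98 and 6.52 at 48 h. The proteasome, which degrades proteins, had a median of -0.07 over 53 tested models, with 24 above 0. One of them, the 26S non-ATPase regulatory subunit 9 (BSL78_02056), held 0, 0 and 2.71 FPKM at 6 h and 19.5, 15.6 and 16.2 at 48 h (log2 change 3.54, limma adjusted p = 0.387).

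**Figure D4:**
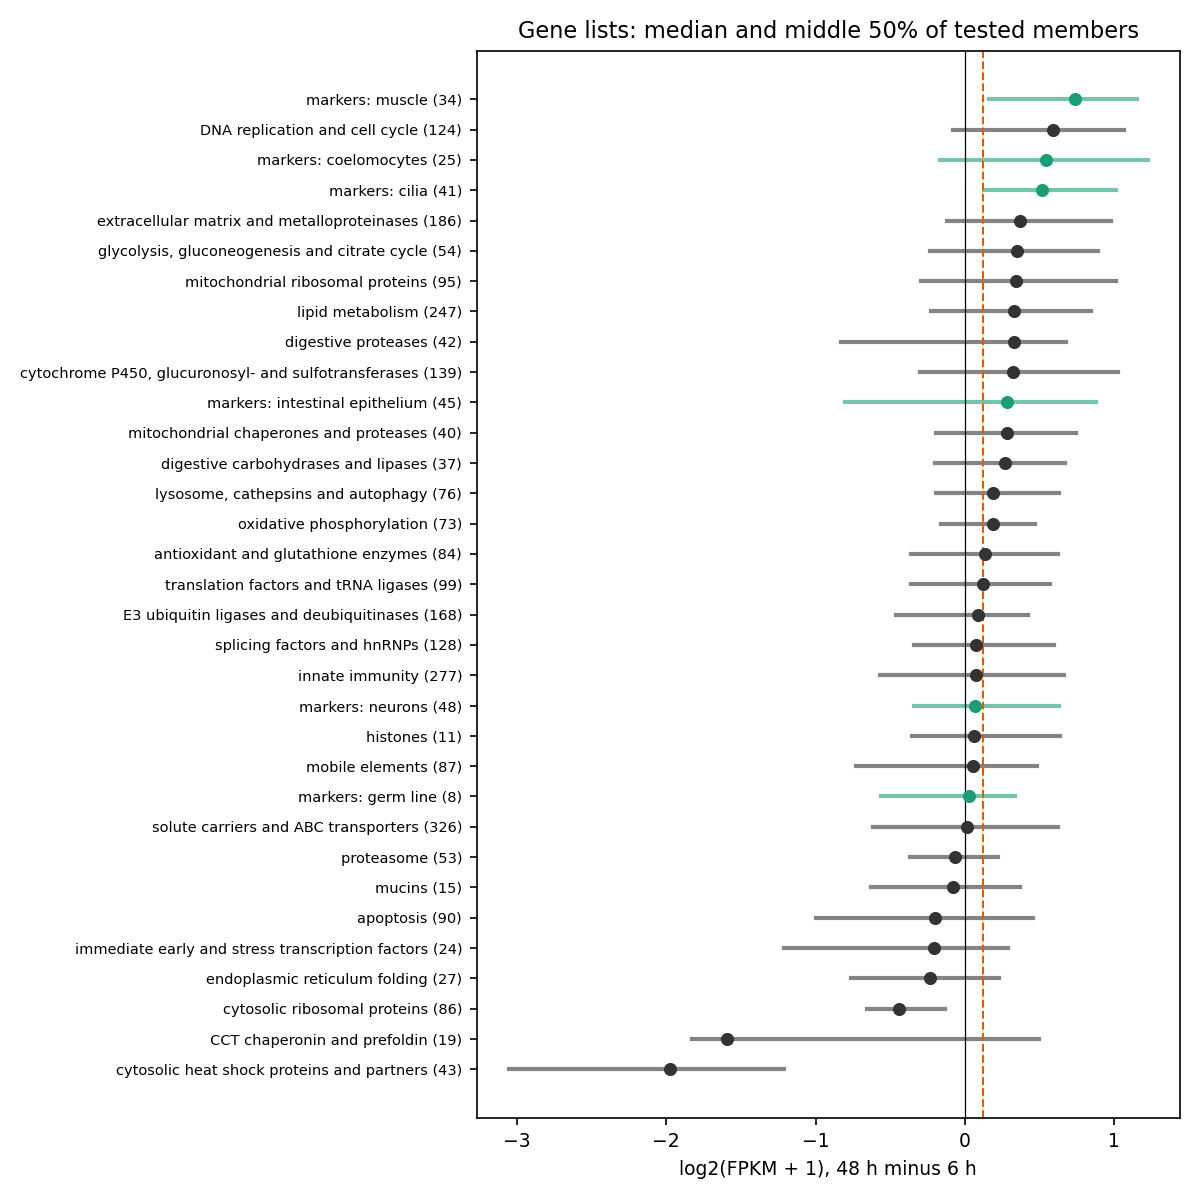
Median change (points) and middle 50% of the tested members (bars) of each gene list, as log2(FPKM + 1) at 48 h minus 6 h, with the number of tested models in brackets. Marker lists are green, the dashed line is the median of all genes tested (0.12), and the cytosolic heat shock list (-1.98) and the CCT chaperonin with prefoldin (-1.59) lie below the other lists.

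A few genes outside the chaperones shared the pattern of high 6 h values and near absence at 48 h without passing the test. A second hypothetical protein (BSL78_29774) held 41.01, 13.9 and 24.1 FPKM at 6 h and 0, 0 and 0 at 48 h, at least 22.1-fold lower (limma adjusted p = 0.0733). A model named after a starfish transposon peptide (BSL78_10877) held 21.6, 32.7 and 70.7 FPKM at 6 h and 0, 0 and 0.591 at 48 h. Neogenin (BSL78_08181), a receptor for netrins and repulsive guidance molecules, held 54.9, 54.3 and 27.8 FPKM at 6 h, 1.57, 2.64 and 5.48 at 48 h and 13.3, 6.17 and 9.18 in controls, and its 48 h values were below all controls (log2 change -3.51, limma adjusted p = 0.143). Both models of the TIMELESS-interacting protein, which stabilises stalled replication forks, had higher values at 6 h. One (BSL78_27883) held 3.52, 68.5 and 22.5 FPKM at 6 h and 0, 0.216 and 0.192 at 48 h, and the other (BSL78_05914) 4.004, 32.7 and 31.7 and 0, 1.11 and 0.328. A zinc finger protein (BSL78_08903) held 123, 88.9 and 268 FPKM at 6 h and 5.83, 8.74 and 9.72 at 48 h. It lies 1802 bases from a mevalonate kinase model on the same strand (BSL78_08902), an enzyme of sterol synthesis, which held 11.7, 3.46 and 30.7 FPKM and 0, 0 and 0. Unlike these, LVN1.2 (BSL78_07316) was high in controls as well, with 190.5, 64.6 and 229 FPKM there, 38.7, 80.2 and 154 at 6 h and 0.793, 0.594 and 15.6 at 48 h.

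The opposite pattern, genes without reads at 6 h that had reads at 48 h, was more common. Before thinning, 350 models had 0 reads in all 3 animals at 6 h and reads in all 3 at 48 h, and 26 had the reverse. After thinning the numbers were 438 and 36. These counts go with the lower number of genes detected at 6 h, and the part of detection in them was not tested. Photolyase (BSL78_25254, scaffold MRZV01001432.1, bases 40708 to 42577, plus strand), which repairs ultraviolet damage in DNA with the energy of light, came closest to the threshold among genes higher at 48 h. It held 0, 0 and 0 FPKM at 6 h, 41.6, 36.1 and 5.85 at 48 h and 4.86, 2.3 and 1.09 in controls. No 6 h animal had a read, and the 48 h group had 71, with all 3 animals above the controls (at least 5.67-fold higher, log2 change 4.47, SE 0.69, limma adjusted p = 0.0733). Arylsulfatase J (BSL78_28848), which removes sulfate groups, held 0, 0 and 0.921 FPKM at 6 h, 20.8, 14.2 and 12.6 at 48 h and 40.5, 6.96 and 10.9 in controls, so here 6 h stood below both other groups. The same order held for monocarboxylate transporter 6 (BSL78_15659), with 0, 1.01 and 1.11 FPKM at 6 h, 10.4, 6.8 and 7.12 at 48 h and 11.7, 17.9 and 11.7 in controls. It also held for hnRNP L (BSL78_06952), a regulator of splicing, with 1.57, 0 and 1.13 FPKM, 10.04, 9.55 and 11.1 and 23.4, 21.9 and 20.6. Limma's adjusted p was 0.199, 0.325 and 0.372 for the 3 genes.

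**Figure D5:**
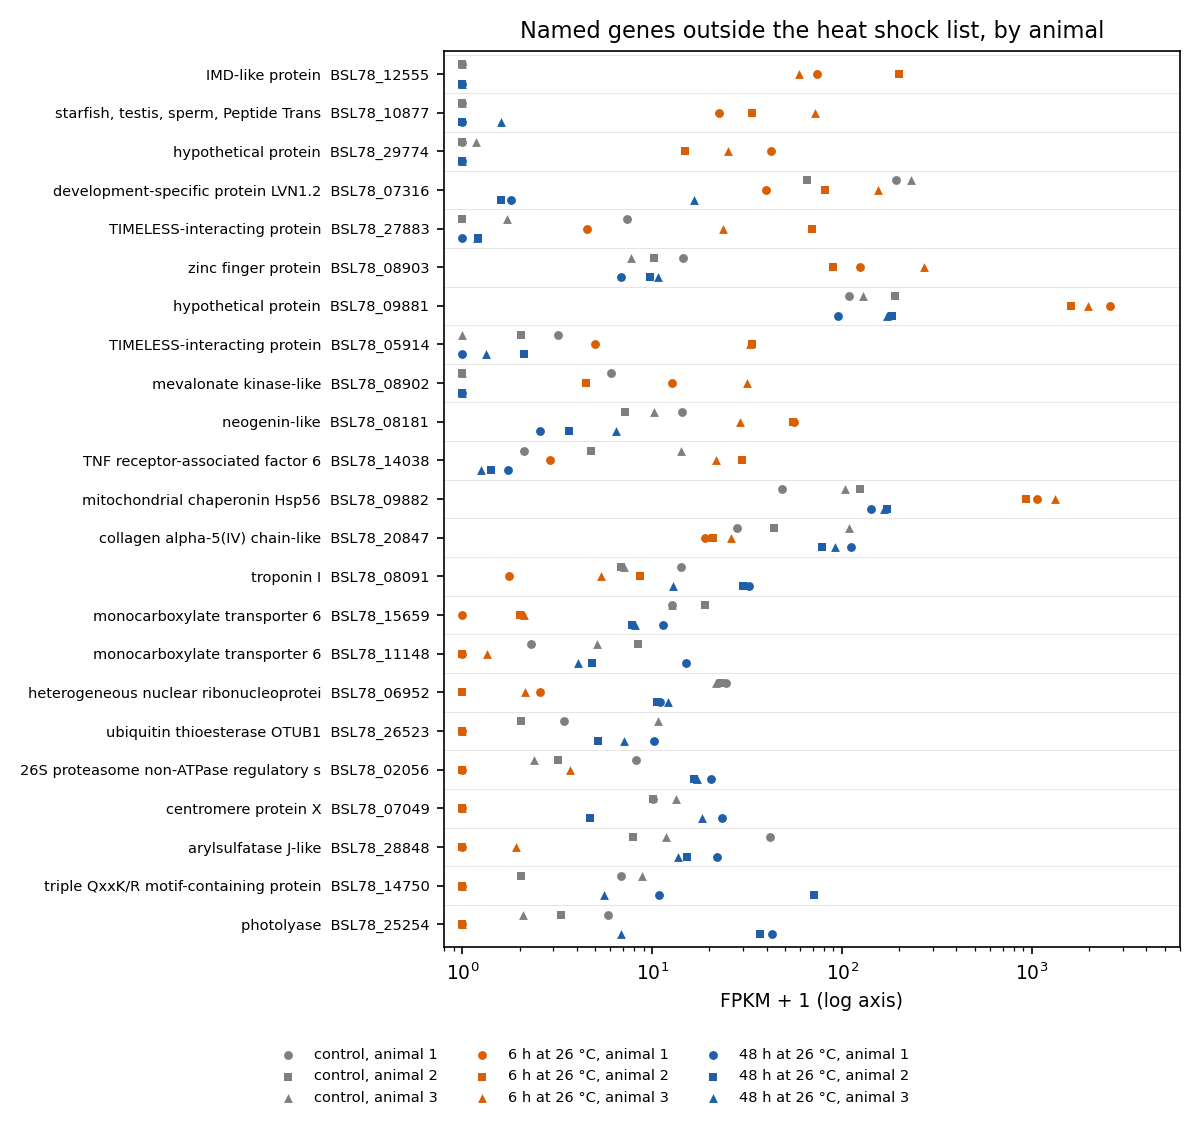
FPKM + 1 (horizontal axis, log scale) of named genes outside the heat shock list, 1 row per gene, with controls in grey, 6 h in orange and 48 h in blue, and circle, square and triangle for animals 1, 2 and 3. In the upper rows, from the IMD-like protein to Hsp56, orange lies to the right, and in the lower rows, from collagen alpha-5(IV) to photolyase, blue lies to the right of orange.

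Genes of DNA replication and the cell cycle had higher values at 48 h as a group, without any call. Of 171 models 124 were tested and 90 were above 0, with a median of 0.59. The groups did not overlap for 28 higher (22.6%) and 6 lower models, and 14 were higher and 3 lower at an unadjusted p under 0.05 (11.3% and 2.42%). Over all genes 7.87% were higher and 4.76% lower without overlap, 4.09% and 2.92% at an unadjusted p under 0.05, and 56.0% above 0. Relative to all genes the median was 0.47, and it was 0.47 over the 36 members with a mean of at least 5 FPKM. Centromere protein X (BSL78_07049), a histone-fold protein of the kinetochore, held 0, 0 and 0 FPKM at 6 h, 22.2, 3.7 and 17.3 at 48 h and 9.12, 9.08 and 12.3 in controls. Subunit 4 of the anaphase-promoting complex (BSL78_10250), a ubiquitin ligase that ends mitosis, held 0.503, 0.365 and 3.14 FPKM at 6 h, 20.8, 6.31 and 14.9 at 48 h and 42.8, 22.4 and 7.79 in controls. In both, the 6 h animals were below all other animals of these groups. Centromere protein M (BSL78_09173) had that order too, with 0, 1.47 and 1.94 FPKM at 6 h, 11.95, 13.4 and 4.65 at 48 h and 14.7, 27.2 and 22.9 in controls. The small subunit of ribonucleotide reductase (BSL78_21117), which makes deoxynucleotides, held 0, 3.96 and 7.19 FPKM at 6 h and 36.2, 9.38 and 6.41 at 48 h and overlapped.

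The extracellular matrix list had 130 of 186 tested models above 0, with a median of 0.37, and 15 higher against 1 lower at an unadjusted p under 0.05 (8.06% and 0.538%, against 4.09% and 2.92% of all genes, of which 56.0% were above 0). It took 0.653, 0.464 and 0.288% of the reads at 6 h, 1.18, 1.58 and 1.13% at 48 h and 0.688, 0.575 and 1.15% in controls, so the 48 h animals were above all 6 h animals. On summed levels the groups overlapped, with 5502, 3041 and 1976 FPKM at 6 h and 8608, 5562 and 2902 FPKM at 48 h. A separation in shares of reads was not particular to this list or to the muscle and cilia markers below. Splicing factors took 0.326, 0.378 and 0.364% at 6 h and 0.516, 0.565 and 0.703% at 48 h. Oxidative phosphorylation took 0.616, 0.818 and 0.641% and 1.28, 1.08 and 1.21%. On summed levels splicing factors and oxidative phosphorylation overlapped too. Other lists, such as the digestive proteases, overlapped in shares of reads. A chain of collagen IV (BSL78_20847), a component of the sheet under epithelia and around muscle, held 17.98, 19.8 and 25.1 FPKM at 6 h and 109.9, 77.1 and 91.2 at 48 h, 4.43 times as much on average (log2 change 2.09, SE 0.61, limma adjusted p = 0.505). Basement membrane heparan sulfate proteoglycan (BSL78_11836) held 8.02, 11.95 and 21.6 FPKM at 6 h, 42.4, 58.2 and 40.9 at 48 h and 13.5, 24.01 and 17.9 in controls. Nidogen-1 (BSL78_06905), which links collagen IV to laminin, held 0, 0 and 0.547 FPKM and 1.12, 5.47 and 5.62. Matrix metalloproteinase-16 (BSL78_05130), a protease at the cell surface, held 2.24, 0.541 and 0.179 FPKM at 6 h and 18.3, 4.4 and 4.16 at 48 h.

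Markers of muscle also had higher values at 48 h. Of 51 models 34 were tested and 30 were above 0, with a median of 0.74, 9 higher and 1 lower without overlap (26.5% and 2.94%, against 7.87% and 4.76% of all genes) and 4 higher and 1 lower at an unadjusted p under 0.05 (11.8% and 2.94%, against 4.09% and 2.92%). Their share of reads was 0.108, 0.203 and 0.153% at 6 h, 0.238, 0.44 and 0.651% at 48 h and 0.236, 0.296 and 0.256% in controls, and their summed level lay between 803 and 933 FPKM at 6 h and between 1339 and 1737 FPKM at 48 h. Among all their models 2, both titin-like, were at 0 in the 6 libraries. Myosin heavy chain (BSL78_09828) held 123, 86.8 and 150.3 FPKM at 6 h, 245, 278 and 306 at 48 h and 351, 172 and 76.01 in controls. Troponin I (BSL78_08091), which gates contraction, held 0.755, 7.67 and 4.34 FPKM at 6 h and 31.2, 28.9 and 11.9 at 48 h (log2 change 2.42, limma adjusted p = 0.495). Tropomyosin (BSL78_18963) held 150.2, 357 and 229 and 384, 422 and 457 FPKM, and calponin-3 (BSL78_03318) 252, 116 and 185 and 340.0, 425 and 395. In all 4 genes every 48 h animal was above every 6 h animal, while the controls overlapped the 6 h animals. A titin model (BSL78_03645) differed in the other direction, with 5.17, 4.8 and 14.3 FPKM at 6 h and 0, 0.106 and 0.754 at 48 h. Relative to all genes, the median of the markers ran from 0.41 without animal 3 at 6 h to 0.82 without animal 1 at 48 h. The part of muscle content in the matrix result was not tested.

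Of the other cell types, cilia had 33 of 41 tested marker models above 0 (median 0.51). At 0 in all 6 libraries were 10 of 83 models, all of them dynein heavy chains. The share of the cilia markers was 0.031, 0.0416 and 0.0122% at 6 h and 0.0702, 0.0708 and 0.0459% at 48 h, without overlap. Their summed levels overlapped, at 222, 253 and 72.8 FPKM at 6 h and 385, 281 and 152 FPKM at 48 h. The cilia median relative to all genes, 0.39, was -0.0038 without animal 3 at 6 h and 0.18 without animal 1 at 48 h. Coelomocytes, the immune cells of the body cavity, had 16 of 25 above 0 (median 0.54). Their summed levels were between 355 and 621 FPKM at 6 h and between 308 and 409 FPKM at 48 h. Their shares of reads overlapped, at 0.0467, 0.0831 and 0.0705% at 6 h and 0.0593, 0.0711 and 0.111% at 48 h. Of 54 models 19 were at 0, made up of mannose receptor, C-type lectin and scavenger receptor models. Neuronal markers had 26 of 48 above 0 (median 0.07), with 26 of 89 models at 0, acetylcholine receptor subunits and synaptotagmins. Germ line markers were close to absent, with 7 of 29 models at 0, all zonadhesins, and a summed level between 14.98 and 41.7 FPKM at 6 h and between 20.6 and 47.6 FPKM at 48 h. Markers of the intestinal epithelium, the labelled tissue, had 45 of 59 models tested, 27 above 0 and 6 at 0 in all 6 libraries. Their share was 0.063, 0.173 and 0.409% at 6 h and 0.0799, 0.176 and 0.361% at 48 h, which overlap almost wholly.

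Digestive enzymes divided between models that were higher at each time. Over 42 tested digestive proteases the median was 0.33, with 3 higher and 3 lower at an unadjusted p under 0.05 (7.14% each, against 4.09% and 2.92% of all genes), and among the 22 with a mean of at least 5 FPKM 9 were above 0. Carboxypeptidase B (BSL78_29993) held 191, 477 and 229.7 FPKM at 6 h and 70.96, 26.2 and 62.6 at 48 h, and carboxypeptidase A2 (BSL78_00588) 0, 0 and 4.11 and 18.8, 8.75 and 17.97. Endochitinase A (BSL78_24477), which cuts chitin, held 33.4, 45.1 and 36.1 FPKM at 6 h and 5.47, 8.62 and 12.5 at 48 h and did not overlap. Solute carriers and ABC transporters had a median of 0.01 over 326 tested models, with 165 above 0. Among the 110 with a mean of at least 5 FPKM, 47 were above 0. Their summed level over all models was 4375, 2926 and 3365 FPKM at 6 h and 1412, 1758 and 1907 FPKM at 48 h. Their shares of reads overlapped, at 0.609, 0.428 and 0.459% and 0.201, 0.407 and 0.549%. A family 22 member (BSL78_09397), of the organic ion transporters, held 110.3, 250.0 and 159 FPKM at 6 h and 2.94, 4.25 and 17.4 at 48 h.

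Metabolic lists had medians a little above that of all genes with every library in the fit. Lipid metabolism had 162 of 247 tested models above 0 (median 0.33), glycolysis with gluconeogenesis and the citrate cycle 38 of 54 (median 0.35), oxidative phosphorylation 46 of 73 (median 0.19) and cytochrome P450 with conjugating enzymes 89 of 139 (median 0.32). Relative to all genes, oxidative phosphorylation, at 0.07, turned to -0.15 without animal 3 at 6 h and -0.14 without animal 1 at 48 h, and lipid metabolism went from 0.21 to 0.058 without animal 3 at 48 h. Triosephosphate isomerase (BSL78_08038), a glycolytic enzyme, held 5.7, 3.62 and 17.8 FPKM at 6 h, 17.5, 27.8 and 36.7 at 48 h and 40.9, 62.3 and 28.2 in controls. Phosphoenolpyruvate carboxykinase (BSL78_04052), which starts gluconeogenesis, held 44.97, 89.6 and 392 FPKM at 6 h and 68.1, 19.2 and 14.99 at 48 h, a difference in the other direction with overlap. Mitochondrial manganese superoxide dismutase (BSL78_04630), which removes superoxide, held 21.6, 2.8 and 20.7 FPKM and 31.1, 33.3 and 44.8 without overlap, in an antioxidant list whose 84 tested models had a median of 0.14.

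Among transcription and signalling genes of the early stress response, 24 were tested, 11 were above 0 and 3 were lower at an unadjusted p under 0.05 (12.5%, against 2.92% of all genes), with a median of -0.21. Both tribbles-like pseudokinases, which steer proteins to ubiquitin ligases, were lower without overlap. One (BSL78_06039) held 79.4, 79.3 and 253 FPKM at 6 h and 20.6, 18.2 and 20.1 at 48 h, and the other (BSL78_23954) 213, 294 and 882 and 106, 71.2 and 74.8. DNA damage-inducible transcript 4 (BSL78_20290), which restrains growth signalling through mTOR, held 423, 599 and 647 FPKM at 6 h and 199.6, 178 and 182 at 48 h, again without overlap, with limma adjusted p of 0.556, 0.63 and 0.684 for the 3 genes.

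The innate immunity list had 277 tested models, 145 of them above 0 with a median of 0.07, and the IMD-like protein was its 1 call. TRAF6 (BSL78_14038), a ubiquitin ligase of NF-kB signalling, held 1.9, 28.7 and 20.8 FPKM at 6 h and 0.748, 0.42 and 0.249 at 48 h, without overlap. Complement factor B-2 (BSL78_22699), a protease of the alternative complement pathway, held 0, 0 and 0 FPKM and 5.22, 12.1 and 3.13. In the apoptosis list (37 of 90 above 0, median -0.20) some genes were present in part of a group only. An inhibitor of apoptosis with BIR repeats (BSL78_01445) held 0, 492 and 147 FPKM at 6 h and 0, 0 and 2.12 at 48 h, and caspase-6-like (BSL78_15677), a protease of cell death, 0, 0 and 0 and 0, 40.3 and 31.3.

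The remaining lists had medians near that of all genes and 0 calls. Above 0 were 93 of 168 tested models of ubiquitin ligases with deubiquitinases (median 0.09), 46 of 76 tested models of lysosome and autophagy (median 0.19), 71 of 128 tested models of splicing factors (median 0.07) and 54 of 99 of translation factors with tRNA ligases (median 0.12). For carbohydrases with lipases the count was 24 of 37 (median 0.27), for mobile elements 44 of 87 (median 0.06), for mucins 7 of 15 (median -0.08) and for histones 6 of 11 (median 0.06). A core histone model (BSL78_14036), part of the spool that packs DNA, held 2859.8, 5189 and 5604 FPKM at 6 h and 1976, 1884 and 1342 at 48 h and did not overlap (log2 change -1.35, limma adjusted p = 0.609).

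The result for cytosolic ribosomal proteins depended on the scaling and on single libraries. On the deposited FPKM 71 of 86 models were lower at 48 h, with a median of -0.44, or -0.56 relative to all genes. At an unadjusted p under 0.05, 3 were lower (3.49%, near the 2.92% of all genes), and 0 were called. Relative to all genes the median was -0.45 after rescaling to a common sum and 0.01 after quantile scaling. On the deposited values it ran from -1.14 without animal 1 at 48 h to -0.16 without animal 3 at 48 h. Their share of reads was 25.5, 22.9 and 16.1% at 6 h and 39.7, 19.1 and 20.4% at 48 h, with the highest value in animal 1 at 48 h and no separation of the groups. Rescaling to a common sum moved the median of all genes from 0.12 to 0.46 and quantile scaling to 0.01, so list medians are given relative to it. On that scale the heat shock list was at -2.10, -2.02 and -1.90 under the 3 scalings, CCT with prefoldin at -1.71, -1.63 and -1.50, and muscle markers at 0.62, 0.72 and 0.59. Mitochondrial ribosomal proteins were at 0.22, 0.17 and 0.34 with all libraries, and at -0.011 on the deposited values without animal 3 at 6 h.

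The transcript with the highest mean over the 6 libraries was major yolk protein 2 (BSL78_17355), a transferrin-like protein that echinoderms make in gut and gonad. It held 135599, 62457 and 78926 FPKM at 6 h, 15242, 34890.3 and 13187 at 48 h and 136645, 31798 and 14380.1 in controls. Every 6 h animal was above every 48 h animal, and the controls overlapped both groups (log2 change -2.19, SE 0.79, limma adjusted p = 0.598). Ferritin (BSL78_19566), which stores iron, held 51746, 55699 and 84238 FPKM at 6 h and 41561, 49989 and 37625 at 48 h on the deposited scale. It was above major yolk protein 2 in every 48 h animal and in animal 3 at 6 h. The ferritin change of -0.55 turned to 0.62 under quantile scaling.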

How the data were processed

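The authors deposited FPKM values for 30221 gene models in 12 libraries, per the file headers, with the description, scaffold, position and length of each; 94.04% of lengths are multiples of 3, so they are coding lengths. Aligner, counting tool and genome build are not given in the sources used here, so gene names and coordinates were taken from that table. Multiplied by length, 100% of the FPKM values came out within 0.05 of a whole number of steps particular to each library. These steps were taken as reads for shares, thinning and floors. Their size was 535, 388 and 256 for animals 1, 2 and 3 at 6 h and 526, 197 and 175 at 48 h. It did not follow the reads on genes alone: animal 3 at 48 h had fewer reads than animal 2 and a smaller step. What else entered the scale is not given in the sources used here. Comparisons of FPKM carry it, while shares of reads do not. Groups came from the sample labels.

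The 18729 genes whose average across all 12 libraries reached 0.5 FPKM were tested with limma 3.58.1 (R 4.3.3) on log2(FPKM + 1), with a mean for each of the 4 groups, so that all libraries share 1 estimate of spread (8 residual degrees of freedom), and Benjamini-Hochberg adjustment over all genes at 0.05. Single values per library were compared with exact permutation tests. Tests are two-sided. Depth was 1788303 to 3627690 reads on genes in the 6 libraries compared. Wilson intervals and floors cover counting error only, since amplified reads are not independent molecules.

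The 27 gene lists and 6 sets of cell type markers were made from words in the descriptions. Members and lists were chosen with earlier results of these data known. The genes named are those called, up to 4 of the largest changes of each list at an unadjusted p under 0.05, the 15 smallest p-values among genes with a name outside the lists, genes called at 6 h against control, and the 5 most abundant. Further chaperones, muscle, matrix, centromere and neighbouring genes were named after their values were seen. The fit was also run on simulated counts with the same spread setting for every gene. That setting was not matched to the spread between these animals, so the run does not vouch for the fit on them. Alternatives were other pseudocounts, filters, scalings and fits, a test on recovered reads (voom), a replicate block and the omission of each library.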

Additional observations from a re-analysis of the deposited data

How the results depend on the processing

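The count of 0 genes higher at 48 h became 3 with a pseudocount of 0.1 FPKM and 1 after rescaling to a common sum. It ran from 0 to 2 when single libraries were left out (2 without animal 2 and 1 without animal 3 at 48 h). The count of 2 lower genes became 1 with a pseudocount of 0.1, 1 under quantile scaling, 0 in a fit to the 6 libraries compared and 3 with voom on recovered reads. It ran from 1 to 4 when single libraries were left out (4 without animal 2 at 6 h, and 4 without animal 3 at 30 °C). With the replicate number as a block it became 1, the IMD-like protein. Deviations of same-numbered libraries correlated at 0.057, 0.011 and 0.146, and those of differently numbered ones at -0.098 to 0.041. At both times, and in the controls too, the genes detected at equal depth and the heat shock share rose from animal 1 to animal 3. The labels do not say whether a shared number marks a shared batch, and low correlations over genes cannot exclude it. The permutation tests take the animals as unpaired.

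The change of ferritin (BSL78_19566) reversed to 0.62 under quantile scaling. The log2 change of BSL78_22349 and the log2 change of BSL78_24556, both hypothetical proteins, ran from -0.11 to 1.03 and from -0.0724 to 2.53 when single libraries were left out, and both were below 0 without animal 3 at 6 h. BSL78_22349 was also at -0.08 without animal 1 at 48 h. Relative to all genes, quantile scaling moved the medians of glycolysis with the citrate cycle to 0.52 and of oxidative phosphorylation to 0.46. Keeping only members with a mean of at least 5 FPKM, an alternative added after seeing the data, gave -0.76 for endoplasmic reticulum folding, 0.20 for antioxidant enzymes, 0.067 for innate immunity, -0.49 for digestive proteases, -0.31 for solute carriers, 0.57 for extracellular matrix and -0.38 for mobile elements. With single libraries left out, mitochondrial chaperones ran from 0.077 to 0.32, ubiquitin ligases from -0.13 to 0.0057, stress transcription factors from -0.86 to -0.044, apoptosis from -0.39 to -0.091 and mucins from -0.79 to -0.11. Leaving out 1 of the 6 libraries turned the sign of 15 of the 33 list medians relative to all genes. The heat shock, CCT, cell cycle, matrix and muscle lists were among the 18 that kept it. The causes were not tested. With 3 animals a group and at most 3627690 reads a library, genes of a few FPKM rest on few reads.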
